A study of Mus musculus with 6 samples.

Results

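Complement is the protein cascade of blood and tissue that tags surfaces for removal, attracts leukocytes and punctures membranes. The genes described here are 36 mouse genes for its components, regulators and receptors, taken by symbol from the gene table. All 36 had a row among the 17684 genes of the table, and they are grouped by role into the classical, lectin, alternative and terminal pathways, the regulators and the receptors. Of these, 25 reached at least 10 counts in at least 3 libraries and were tested. The other 11 (Masp2, Fcna, Fcnb, Colec10, Colec11, Cfd, Hc, C8b, C9, C5ar2 and Vsig4) did not, and are described by their counts.

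Kidney RNA was sequenced from 3 mice of the Db group and 3 mice of the Db + Ato10 group, with 1 library per mouse. All 6 were db/db mice of the labelled strain C57 BLKS/L, which lack a working leptin receptor and become obese and diabetic, and all were 50 weeks old. The Db group had received normal saline and the Db + Ato10 group atorvastatin, an inhibitor of cholesterol synthesis, at 10 mg/kg per day for 40 weeks. The comparison asks how the kidneys of atorvastatin-treated diabetic mice differed from those given saline. By the study's methods atorvastatin was gavaged as a suspension in saline on some days of the week, and the enrolled mice were male. One protocol field of the sample records describes all 6 mice as given atorvastatin, whereas the treatment characteristic separates saline from atorvastatin, and the groups follow the latter. Kidneys of non-diabetic mice were not analysed here, so no value can be set against a healthy level. The libraries held 13134930, 11381678 and 12426051 counts in Db replicates 1 to 3 and 14578023, 14667909 and 13133241 counts in Db + Ato10 replicates 1 to 3.

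The classical pathway starts when C1q, with its proteases C1r and C1s, binds antibody or other ligands and cleaves C4 and C2. The lectin pathway reaches the same step through collectins and ficolins with MASP proteases, and the alternative pathway amplifies the cleavage of C3 on a surface with the help of factor B, factor D and properdin. All routes meet at C3, which feeds the membrane attack complex of C5 to C9, while regulators on host cells and in plasma limit the cascade. Most circulating components come from the liver, macrophages are a main source of C1q, and tubular epithelium can make C3 and factor B.

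The libraries were checked against their labels before the genes were compared. The 9 kidney markers (Umod, Slc12a1, Slc12a3, Slc34a1, Lrp2, Aqp2, Nphs1, Slc5a2 and Kap) had counts in every library. Summed over the list they reached 16792, 13760.4 and 14723 CPM (counts scaled to TMM library size) in Db replicates 1 to 3 and 6436, 5462 and 13001 CPM in Db + Ato10 replicates 1 to 3, with Kap the most abundant in TPM (scaled to gene length and library). Counts summed over 4 Y-linked genes came to 2 in Db replicate 1 and to 1419 or more, up to 2116, elsewhere, although the enrolled mice were male. The library labelled Db replicate 1 therefore lacked Y-linked RNA, and for the members named in full the log2 fold change is also given without it; the sums, shares, ratios and transcripts include it. Db + Ato10 replicate 3 lay near the Db libraries on the first principal component, at -18.8 against -55.4 to -26.9 in the Db libraries, with 107 and 46.1 in Db + Ato10 replicates 1 and 2. Of the 25 tested members, 16 lay within the range of the Db libraries in Db + Ato10 replicate 3, and the share over all 13679 tested genes was 52.6%.

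Among the tested members, C1q, C3, C4b, properdin and the C3a and C5a receptors had the largest log2 fold changes in favour of the Db + Ato10 group, while the mean log2 fold changes of factor B and C2 were small because their Db + Ato10 libraries lay on both sides of the Db levels. With edgeR's quasi-likelihood test after Benjamini-Hochberg adjustment, 0 of the 25 members met the criteria for a differentially expressed gene (fold change over 1.5 and adjusted p under 0.05), beside 0 of all 13679 genes (0%). The smallest adjusted p of any gene in that edgeR test was 0.239. At an unadjusted p under 0.05 edgeR counted 11 members higher in the Db + Ato10 group, against 11.2% of all genes, and 0 members lower, against 5.71%. DESeq2 on the same counts called 9 members higher, against 5.17% of all genes, and 0 members lower, against 1.29%. These 9 were C1qa, C1qb, C1qc, C1ra, C4b, C3, Cfp, C3ar1 and C5ar1. C8a had no adjusted p in DESeq2 on all 6 libraries (log2 fold change -1.28), so it could not be called lower there. The other tests run on all 6 libraries called 0 members: at an unadjusted p under 0.05, in either direction, limma-voom had 9 members among 1820 genes, limma on log2(FPKM + 1) had 7 among 1915 and limma on log2(TPM + 1) had 10 among 2177. The 9 included C8a and the 10 included Cd59a, both lower.

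The calls depended on single libraries. With edgeR and without Db + Ato10 replicate 3, 10 members were called higher, against 5.96% of all genes, and C8a was called lower, against 2.23%. All 9 members that DESeq2 called on the full data were among these 10. Without Db replicate 1, edgeR called 0 members and counted 6 at an unadjusted p under 0.05 (C1qa, C1qb, C1qc, C4b, C3 and C5ar1), among 1043 of 13588 genes. DESeq2 kept 3 members (C1qc, C4b and C3) whichever library was left out. The number of all genes kept in this way is not given, so the 3 cannot be set against a share. The DESeq2 calls of C1qa and C1qb were lost without Db replicate 1 (adjusted p = 0.101 and 0.0899) and without Db replicate 3 (adjusted p = 0.0752 and 0.0622), and that of C1qa also without Db + Ato10 replicate 1 (adjusted p = 0.273).

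In 4 of the 25 members every Db + Ato10 library lay above every Db library, against 12% of all genes, and in 1 every Db + Ato10 library lay below, against 11.3%. The count higher was near the share over all genes, and the count lower was under it. The 4 were C1qb, C1qc, C4b and C3, and the 1 was Cd59a. In TPM C1qb overlapped, with 64.0 in Db + Ato10 replicate 3 against 65.1 in Db replicate 2. Without Db replicate 2 the count higher was 16, against 20.2% of all genes, and the count lower 2, against 18.9%. Without Db + Ato10 replicate 3 they were 14, against 25.3%, and 3, against 25.1%. The median log2 fold change of the tested members was 1.56, beside -0.0063 over all tested genes. Leaving out Db replicate 1 gave 1.44, and leaving out Db + Ato10 replicate 1 gave 0.87. Fewer cells of a type and less RNA per cell cannot be told apart in whole kidney, and the same holds for more.

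**Figure D1:**
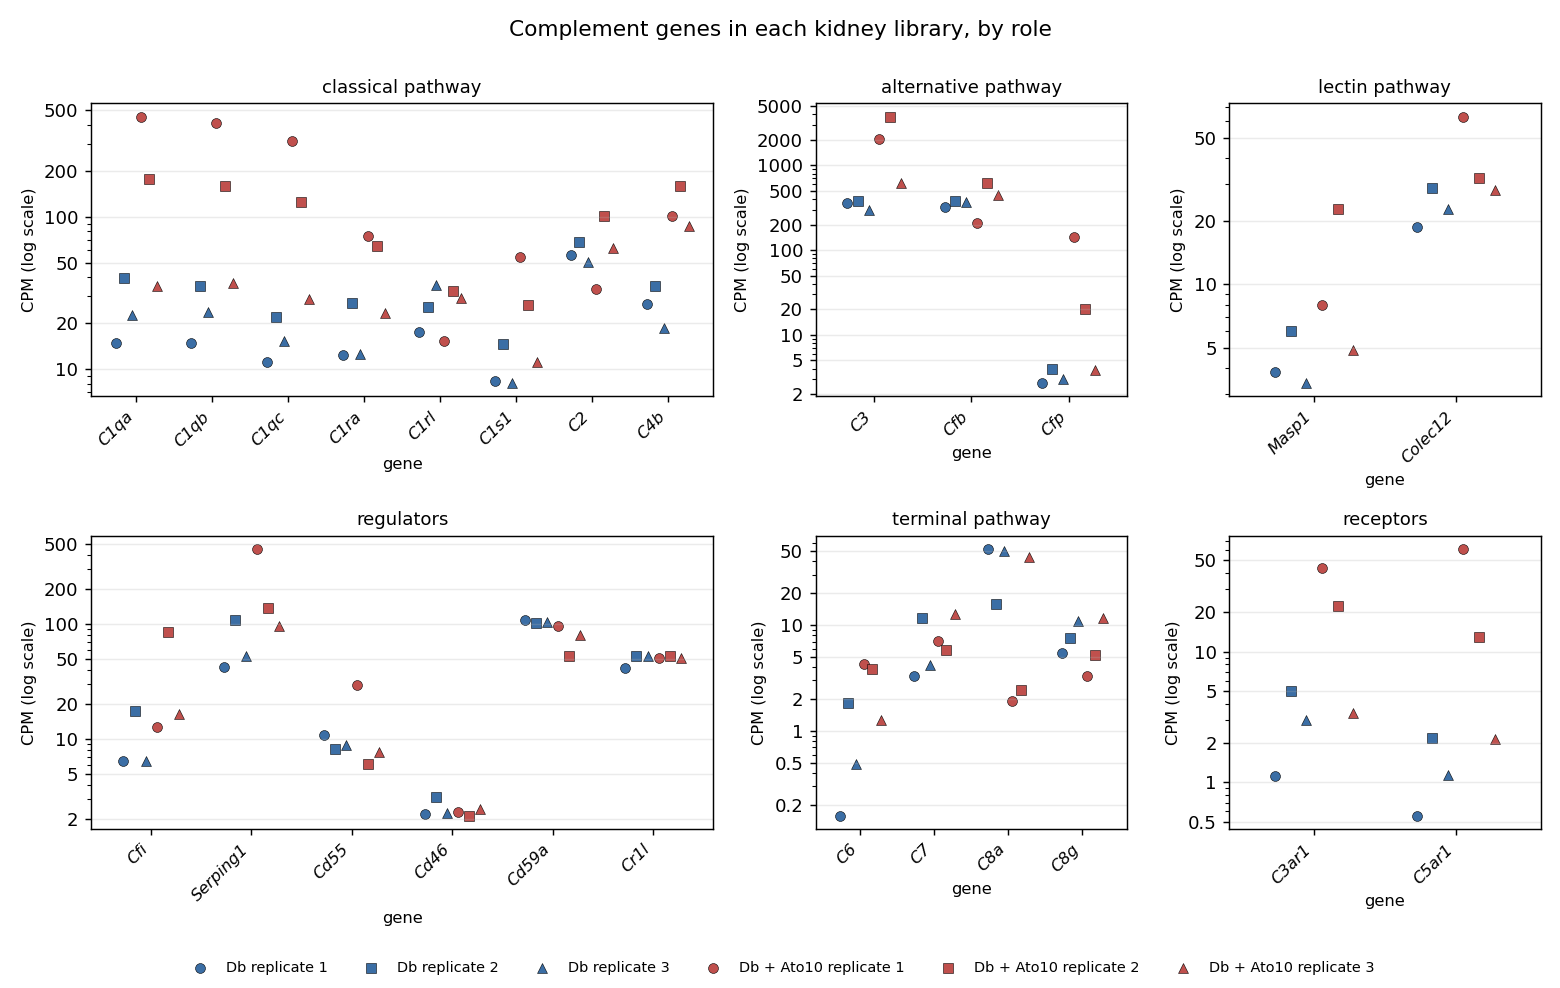
Levels of the 25 tested complement genes in each library, in CPM on a log scale, with 1 panel per role; each point is 1 library, blue for Db and red for Db + Ato10, and the marker shape gives the replicate. C3 stood at 2029, 3752 and 626 CPM in the Db + Ato10 libraries, above all Db libraries (299.5 to 384 CPM), and Cfb overlapped between the groups.

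In the classical pathway 8 of 8 members were tested, with a median log2 fold change of 1.88. At an unadjusted p under 0.05 with edgeR 6 were higher, against 11.2% of all genes, and 0 lower, against 5.71%. C1qa, C1qb and C1qc (NCBI Gene 12259, 12260 and 12262) encode the A, B and C chains of C1q, the part of C1 that recognises its targets. C1qa stood at 14.9, 39.3 and 22.6 CPM in Db replicates 1 to 3 and at 454, 176 and 35.0 CPM in Db + Ato10 replicates 1 to 3. C1qb stood at 14.7, 35.3 and 23.7 CPM in the Db libraries and at 413, 160.2 and 36.9 CPM in the Db + Ato10 libraries. C1qc stood at 11.1, 21.9 and 15.3 CPM in the Db libraries and at 316, 126 and 28.8 CPM in the Db + Ato10 libraries. Db + Ato10 replicate 1 was highest and replicate 2 next for each chain, while replicate 3 lay just above the highest Db library for C1qb and C1qc and below it for C1qa, whose groups overlapped.

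The 3 chains had similar fold changes. C1qa had a log2 fold change of 3.12 ± 0.90 (SE) and an adjusted p of 0.239 in edgeR's quasi-likelihood test, and DESeq2 gave an adjusted p of 0.00398 (4.42e-09 to 0.588 over all alternatives). For C1qb the log2 fold change was 3.05 ± 0.85 (edgeR adjusted p = 0.239), with an adjusted p of 0.00311 in DESeq2 (2.06e-09 to 0.588 over all alternatives). For C1qc it was 3.28 ± 0.83 (edgeR adjusted p = 0.239), with an adjusted p of 0.000952 in DESeq2 (3.43e-12 to 0.588). Without Db + Ato10 replicate 1 these log2 fold changes were 2.06, 2.02 and 2.28, without Db + Ato10 replicate 3 they were 3.63, 3.55 and 3.78, and without Db replicate 1 they were 2.86, 2.80 and 3.09. The ratio of C1qa to C1qb in TPM ran from 0.928 to 1.09 over the 6 libraries, and that of C1qc to C1qb from 0.628 to 0.793, so the chains kept similar proportions while their level differed widely. In the RefSeq gene order the 3 genes are direct neighbours, with 0 coding genes between C1qb and C1qc and between C1qc and C1qa.

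C1ra and C1s1 encode the proteases C1r and C1s that C1q carries. C1ra had a log2 fold change of 1.64 ± 0.51 and C1s1 of 1.56 ± 0.58 (edgeR adjusted p = 0.239 and 0.266). The groups overlapped for both, since Db replicate 2 lay above Db + Ato10 replicate 3 (27.0 against 23.3 CPM for C1ra, 14.6 against 11.03 CPM for C1s1). The DESeq2 call of C1ra (adjusted p = 0.0332, and 5.16e-05 to 0.588 over all alternatives) did not hold once Db replicate 1 or 3 or Db + Ato10 replicate 1 or 2 was left out (adjusted p = 0.280, 0.255, 0.154 and 0.214), while its log2 fold change in edgeR was then 1.46, 1.45, 1.35 and 1.52. C1s1 was not called by DESeq2 on all 6 libraries, and its log2 fold change was 0.87 without Db + Ato10 replicate 1. Near copies of both genes, C1rb and C1s2, lie beside them, and how the counting split reads between such copies is not given in the sources used here. C1rl, a C1r-like protease, had a log2 fold change of -0.022 ± 0.36 and its groups overlapped.

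C4b (NCBI Gene 12268) encodes C4, which C1s cleaves and which then binds covalently to the target. C4b stood at 26.9, 34.9 and 18.7 CPM in Db replicates 1 to 3 and at 102, 159 and 87.2 CPM in Db + Ato10 replicates 1 to 3. Its lowest Db + Ato10 library, replicate 3, lay above its highest Db library, replicate 2, so the groups did not overlap and the gap did not rest on Db + Ato10 replicate 1. The log2 fold change was 2.11 ± 0.32, with the smallest unadjusted p among the members in edgeR (adjusted p = 0.239), and DESeq2 gave an adjusted p of 1.15e-06 (4.17e-08 to 0.588 over all alternatives). With 1 library left out it ran from 1.83 without Db + Ato10 replicate 2 to 2.35 without Db replicate 2, and was 2.13 without Db replicate 1. C4a, its near-identical copy, stood at 0.954, 1.30 and 1.62 CPM in the Db libraries and at 1.71, 1.42 and 2.60 CPM in the Db + Ato10 libraries, with a log2 fold change of 0.56 ± 0.38 (edgeR adjusted p = 0.454), 0.28 with Db + Ato10 replicate 3 left out and 0.39 with Db replicate 1 left out. C4b exceeded C4a in TPM by 11.4 to 112 times, but reads of such copies cannot be assigned with certainty, and the values of C4a in particular are uncertain.

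C2 supplies the protease of the classical and lectin C3 convertase. C2 stood at 56.4, 68.2 and 50.3 CPM in the Db libraries and at 33.6, 102 and 61.8 CPM in the Db + Ato10 libraries, with a log2 fold change of 0.17 ± 0.38 (edgeR adjusted p = 0.820) that was -0.28 without Db + Ato10 replicate 2. The Db + Ato10 libraries lay on both sides of the Db range, with replicate 1 lowest and replicate 2 highest of all 6.

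In the lectin pathway 2 of 7 members were tested. Colec12 (NCBI Gene 140792), a scavenger receptor of the collectin family, was the most abundant of them in TPM. Colec12 stood at 18.7, 28.7 and 22.9 CPM in the Db libraries and at 62.8, 31.9 and 28.1 CPM in the Db + Ato10 libraries. Only Db + Ato10 replicate 1 lay far from the Db range, and replicate 3 lay within it. Colec12 had a log2 fold change of 0.81 ± 0.34 (edgeR adjusted p = 0.302), 0.37 with Db + Ato10 replicate 1 left out and 0.68 with Db replicate 1 left out. Masp1, a protease of the lectin complexes, had a log2 fold change of 1.44 ± 0.60 (edgeR adjusted p = 0.296) and overlapping groups, and its value without Db + Ato10 replicate 2 was 0.57. Masp1 overlaps Rtp4 in the RefSeq order, so the same limit on read assignment holds as for the near copies above.

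The 5 untested genes of the lectin pathway had few counts in the Db libraries. Masp2 had 3, 2 and 4 counts in Db replicates 1 to 3 and 1, 0 and 1 in Db + Ato10 replicates 1 to 3, and Colec10 had 1 count in 1 library. Colec11 had between 5 and 11 counts in every library. The ficolin genes encode lectins that macrophages and neutrophils make. Fcna had 2, 3 and 0 counts in the Db libraries and 52, 30 and 3 in the Db + Ato10 libraries. Fcnb had 0 counts in each Db library and 34, 0 and 1 in the Db + Ato10 libraries, so nearly all of its counts came from Db + Ato10 replicate 1. At these depths 3 counts correspond to between 0.198 and 0.260 CPM, and no fold is given for these untested genes.

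In the alternative pathway 3 of 4 members were tested. C3 (NCBI Gene 12266), the protein on which all pathways meet, stood at 359, 384 and 299.5 CPM in Db replicates 1 to 3 and at 2029, 3752 and 626 CPM in Db + Ato10 replicates 1 to 3. The groups did not overlap, and here Db + Ato10 replicate 2 was the highest library, where C1q was highest in replicate 1. C3 had a log2 fold change of 2.62 ± 0.63 (edgeR adjusted p = 0.239), and DESeq2 gave an adjusted p of 0.000689 (1.78e-17 to 0.588 over all alternatives). It ran from 1.96 without Db + Ato10 replicate 2 to 3.06 without Db + Ato10 replicate 3, and was 2.65 without Db replicate 1.

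Cfb encodes factor B, the protease of the alternative C3 convertase and the relative and neighbour of C2. Cfb stood at 319, 384 and 370.4 CPM in the Db libraries and at 207, 626 and 449 CPM in the Db + Ato10 libraries, with a log2 fold change of 0.26 ± 0.39 (edgeR adjusted p = 0.728). Like C2, it was lowest of all libraries in Db + Ato10 replicate 1 and highest in replicate 2, and without Db + Ato10 replicate 2 its log2 fold change was -0.11. The TPM ratio of C2 to Cfb stayed between 0.142 and 0.185 over the 6 libraries. The TPM ratio of C3 to Cfb was 0.795, 0.814 and 0.592 in the Db libraries and 8.25, 4.96 and 1.07 in the Db + Ato10 libraries, so it was higher in each Db + Ato10 library than in any Db library.

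Cfp encodes properdin, which stabilises the alternative convertase and is made by myeloid cells. Cfp stood at 2.70, 3.99 and 2.99 CPM in the Db libraries and at 145, 19.9 and 3.86 CPM in the Db + Ato10 libraries, and was singled out after its values were seen. Its groups overlapped, because Db + Ato10 replicate 3 lay below Db replicate 2. Cfp had a log2 fold change of 4.12 ± 1.26 (edgeR adjusted p = 0.239) with all libraries, 1.90 with Db + Ato10 replicate 1 left out and 4.03 with Db replicate 1 left out. DESeq2 gave an adjusted p of 0.00269 (1.56e-08 to 0.588 over all alternatives), and its call was lost without Db replicate 1 or 3 or Db + Ato10 replicate 1 (adjusted p = 0.0690, 0.0559 and 0.1002). The log2 fold change of Cfp in edgeR was 4.07 without Db replicate 3. Cfd, which encodes factor D and is known as an adipocyte product, had at most 3 counts in any library. Of 6 adipocyte markers 5 were in the table, 1 was tested, and Adipoq and Plin1 had at most 1 count in any library. Adipocyte markers summed to 0.556, 0.607 and 0.727 CPM in the Db libraries and to 1.45, 1.69 and 1.02 CPM in the Db + Ato10 libraries. Cidec, the most abundant and the 1 tested, had a log2 fold change of 1.58 (edgeR adjusted p = 0.239), Cidea had 3, 3 and 1 counts in the Db libraries and 2, 0 and 0 in the Db + Ato10 libraries, and their part in the result was not tested.

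**Figure D2:**
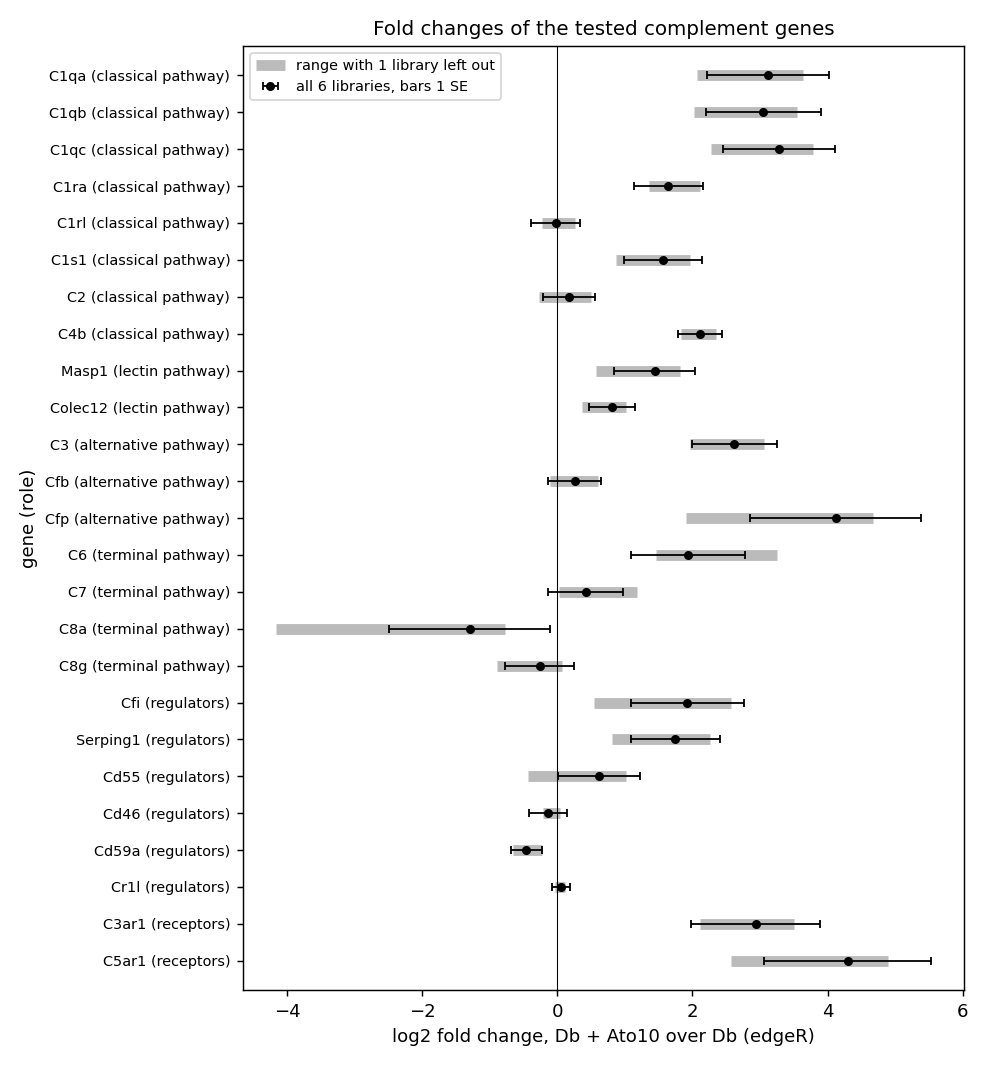
Log2 fold changes of the 25 tested members (Db + Ato10 over Db, edgeR); points with bars give the value ± 1 SE over all 6 libraries, and grey bars the range when 1 library was left out. C4b had a range from 1.83 to 2.35, whereas that of C8a ran from -4.17 to -0.77.

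In the terminal pathway 4 of 7 members were tested, 0 with an unadjusted p under 0.05 in edgeR, against 11.2% of all genes higher and 5.71% lower. C8g (NCBI Gene 69379), the lipocalin-like chain of C8, had the highest mean TPM of this role over all 6 libraries, although C8a was higher in the Db group (19.2 against 15.5 TPM). C8g stood at 5.40, 7.63 and 10.99 CPM in the Db libraries and at 3.29, 5.27 and 11.6 CPM in the Db + Ato10 libraries, with a log2 fold change of -0.26 ± 0.51 (edgeR adjusted p = 0.797). Its groups overlapped, and its log2 fold change became 0.077 when Db + Ato10 replicate 1 was left out and 0.040 when Db replicate 3 was. It was -0.47 when Db replicate 1 was left out and -0.90 when Db + Ato10 replicate 3 was. C8g overlaps Fbxw5 in the RefSeq order, and strand use in the counting is not stated, so its reads cannot be fully told apart from those of Fbxw5.

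C8a encodes the alpha chain of C8 and was singled out after its values were seen. C8a stood at 52.0, 15.9 and 49.7 CPM in the Db libraries and at 1.91, 2.43 and 43.8 CPM in the Db + Ato10 libraries. Db + Ato10 replicates 1 and 2 were the lowest of all 6, and replicate 3 lay within the Db range. C8a had a log2 fold change of -1.30 ± 1.19 (edgeR adjusted p = 0.564). Without Db + Ato10 replicate 3 it was -4.17, with an adjusted p of 0.0287 in edgeR (4.57e-11 to 0.896 over all alternatives), and without Db replicate 1 it was -1.03. C8a overlaps Fyb2 in the RefSeq order.

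The genes of the remaining terminal components were low. C6 had a log2 fold change of 1.94 ± 0.84 (edgeR adjusted p = 0.311) at levels from 0.159 to 4.28 CPM, and 3.26 without Db replicate 2. Its counts were 2, 21 and 6 in Db replicates 1 to 3, so Db replicate 1 lay under the floor of 3 counts and these folds are uncertain. C7, at levels from 3.34 to 12.7 CPM, had a log2 fold change of 0.42 ± 0.55, which ran from 0.026 without Db + Ato10 replicate 3 to 1.18 without Db replicate 2. Hc, which encodes C5, had 10 counts in Db + Ato10 replicate 1 and at most 1 in any other library. C8b and C9 had at most 1 count in any library.

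All 6 regulators were tested, with a median log2 fold change of 0.34 that was -0.025 without Db + Ato10 replicate 1. Serping1 (NCBI Gene 12258) encodes C1 inhibitor, which inactivates C1r, C1s and the MASP proteases. Serping1 stood at 41.96, 107 and 53.2 CPM in the Db libraries and at 446, 138 and 95.5 CPM in the Db + Ato10 libraries. Db replicate 2 lay above Db + Ato10 replicate 3, so the groups overlapped. Serping1 had a log2 fold change of 1.75 ± 0.66 (edgeR adjusted p = 0.270), 0.80 with Db + Ato10 replicate 1 left out and 1.51 with Db replicate 1 left out, and DESeq2 gave an adjusted p of 0.0705 (0.00400 to 0.594 over all alternatives). Cfi encodes factor I, the protease that degrades C3b and C4b. Cfi was highest in Db + Ato10 replicate 2, with 85.8 CPM against 6.44 to 17.5 CPM in the Db libraries, and its log2 fold change of 1.92 ± 0.84 (edgeR adjusted p = 0.311) was 0.55 without that library.

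Cd59a (NCBI Gene 12509) encodes the membrane protein that blocks the last step of membrane attack. Cd59a stood at 109, 103 and 104 CPM in Db replicates 1 to 3 and at 96.8, 52.3 and 80.7 CPM in Db + Ato10 replicates 1 to 3. It was the only tested member whose Db + Ato10 libraries all lay below the Db libraries, and the Db libraries differed little (105 ± 3.29 CPM, SD, n = 3). Cd59a had a log2 fold change of -0.46 ± 0.23 (edgeR adjusted p = 0.350), -0.23 with Db + Ato10 replicate 2 left out and -0.42 with Db replicate 1 left out. Cd55, which speeds the decay of convertases, was highest in Db + Ato10 replicate 1 at 29.2 CPM, with 8.15 to 10.8 CPM in the Db libraries. The log2 fold change of Cd55 was 0.62 ± 0.61, and -0.43 without that library. Cr1l encodes Crry, a rodent membrane regulator of C3 and C4 cleavage, and ranged from 41.9 to 53.1 CPM over all 6 libraries with a log2 fold change of 0.057 ± 0.14. Cd46, a membrane cofactor for factor I that in mice is made mainly in testis, lay between 2.16 and 3.12 CPM. Cd46 and Cr1l overlap in the RefSeq order, so their reads cannot be fully told apart.

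Of the 4 receptors 2 were tested. C5ar1 (NCBI Gene 12273) encodes the receptor of the leukocyte attractant C5a and had the highest mean TPM of them over all 6 libraries, although C3ar1 was higher in the Db group (1.23 against 0.923 TPM). C5ar1 stood at 0.556, 2.17 and 1.13 CPM in the Db libraries and at 60.5, 13.0 and 2.13 CPM in the Db + Ato10 libraries. Db + Ato10 replicate 1 was far above the others, replicate 2 was next, and replicate 3 lay just below Db replicate 2, so the groups overlapped. The log2 fold change was 4.29 ± 1.24 (edgeR adjusted p = 0.239), 2.58 with Db + Ato10 replicate 1 left out and 3.95 with Db replicate 1 left out. DESeq2 gave an adjusted p of 0.00187 (1.72e-08 to 0.588 over all alternatives), and the call did not hold with Db replicate 1 left out (adjusted p = 0.0613) or Db + Ato10 replicate 1 (adjusted p = 0.0756).

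C3ar1 encodes the receptor of C3a. C3ar1 stood at 1.11, 5.03 and 2.99 CPM in the Db libraries and at 43.7, 22.5 and 3.39 CPM in the Db + Ato10 libraries, in the same order of Db + Ato10 libraries as C5ar1, and its groups overlapped. Its log2 fold change was 2.93 ± 0.95 (edgeR adjusted p = 0.239), 2.11 with Db + Ato10 replicate 1 left out and 2.55 with Db replicate 1 left out. DESeq2 gave C3ar1 an adjusted p of 0.0155 (1.13e-06 to 0.588 over all alternatives), and its call was lost without Db replicate 1 or 3 or Db + Ato10 replicate 1 or 2 (adjusted p = 0.172, 0.134, 0.171 and 0.1104). The log2 fold change of C3ar1 in edgeR was 2.92 with Db replicate 3 left out and 2.99 with Db + Ato10 replicate 2 left out. C5ar2, a further C5a receptor and the neighbour of C5ar1, had 1, 4 and 3 counts in the Db libraries and 45, 30 and 7 in the Db + Ato10 libraries. Vsig4, the complement receptor of resident macrophages, had 0, 1 and 0 counts in the Db libraries and 11, 10 and 0 in the Db + Ato10 libraries.

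The members did not share 1 order of libraries. Of the 16 tested members over 1.5-fold higher in the Db + Ato10 group, 12 were highest in Db + Ato10 replicate 1 (among them C1q, C1ra, C1s1, Cfp, Serping1 and both tested receptors) and 4 in replicate 2 (C4b, Masp1, C3 and Cfi). Over all 2237 genes beyond the same fold, 77.1% were highest in replicate 1 and 21.1% in replicate 2. Within the Db group 20 of 25 members were highest in Db replicate 2, where the share over all tested genes was 37.0%. Db replicate 1 was the highest Db library for 3 members and Db replicate 3 for 2.

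Levels between genes were compared in TPM. In the Db group Cfb had the highest mean (231 ± 22.3 TPM, SD, n = 3), followed by C3 (169 ± 30.8), Cd59a (110 ± 3.46), Serping1 (67.6 ± 35.1) and Cr1l (60.1 ± 7.76), and Serping1 and Cr1l did not differ beyond their spread. C1qa, C1qb, C2 and C1qc followed, with 46.2 ± 22.5, 45.4 ± 19.0, 39.2 ± 6.18 and 30.1 ± 10.1 TPM, and their spreads between mice overlapped. Within each of the 6 libraries, however, C1qc lay below C1qb (TPM ratio 0.628 to 0.793). In the Db + Ato10 group C3 came first (1089 ± 855 TPM), then C1qa (368 ± 338), C1qb (345 ± 310), C1qc (269 ± 239) and Cfb (265 ± 141), with spreads between mice as large as the gaps between them. Within each Db + Ato10 library C3 nevertheless exceeded C1qa (985, 1991 and 291 TPM against 730, 315.7 and 59.45 TPM in replicates 1 to 3). As a share of the summed TPM of all 36 members, C3 held 20.7, 18.6 and 16.2% in Db replicates 1 to 3 and 24.7, 51.6 and 25.1% in Db + Ato10 replicates 1 to 3. The 3 C1q chains together held 9.49, 16.3 and 13.0% in the Db libraries and 48.3, 21.8 and 15.01% in the Db + Ato10 libraries.

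Markers of other cell types moved with several members. Macrophage markers (11 of 11 tested) summed to 213, 257 and 213 CPM in Db replicates 1 to 3 and to 4739, 1091 and 289.8 CPM in Db + Ato10 replicates 1 to 3, the order in which C1q and the receptors fell among the Db + Ato10 libraries. Lyz2 was the most abundant, and alone gave 2663 CPM in Db + Ato10 replicate 1, where the neutrophil markers described below were also highest. Cx3cr1 (24.6, 30.2 and 7.01 CPM in Db + Ato10 replicates 1 to 3) and Mertk (69.2, 47.5 and 72.6 CPM) had another order. The remaining macrophage markers followed the order of the sum. At an unadjusted p under 0.05 in edgeR 10 of the 11 were higher, against 11.2% of all genes, and Mertk was not (log2 fold change -0.24). C1qa did not keep 1 ratio to these markers: its TPM ratio to Lyz2 was 0.692, 0.660 and 0.532 in the Db libraries and 0.166, 0.318 and 0.521 in the Db + Ato10 libraries. Its TPM ratio to Csf1r was 0.985, 2.85 and 1.46 in the Db libraries and 6.41, 7.15 and 1.88 in the Db + Ato10 libraries. The part of these markers in the C1q and receptor values was not tested.

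Neutrophil markers (4 of 8 tested, with S100a9 the most abundant) summed to 5.80, 9.97 and 5.49 CPM in the Db libraries and to 9730.5, 103 and 11.3 CPM in the Db + Ato10 libraries. Ly6g, Mpo and Camp had 0 counts in Db + Ato10 replicate 3 and at most 4 in any Db library. The sum in Db + Ato10 replicate 1, where Cfp, C5ar1 and Fcnb were also highest, stood apart from all other libraries, and its part in these genes was not tested. Fibroblast markers (8 of 8 tested, Dcn the most abundant) summed to 92.6, 171 and 112 CPM in the Db libraries and to 1521, 626 and 225 CPM in the Db + Ato10 libraries. Of the 8, 7 were higher at an unadjusted p under 0.05 in edgeR, against 11.2% of all genes. The part of fibroblast markers in the values of C1ra, C1s1 and Serping1, which fibroblasts can make, was not tested.

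T cell markers (7 of 8 in the table, 4 tested, Cd3g the most abundant) summed to between 2.62 and 7.89 CPM in the Db libraries and to 22.8, 19.7 and 4.17 CPM in the Db + Ato10 libraries. B cell markers (1 of 6 tested, Cd79b the most abundant in the Db group and Cd79a in the Db + Ato10 group) summed to between 0.636 and 2.51 CPM in the Db libraries and to 21.0, 6.96 and 1.73 CPM in the Db + Ato10 libraries. Endothelial markers (7 of 7 tested, Plvap the most abundant) summed to 513, 472 and 516 CPM in the Db libraries and to 549, 232 and 524 CPM in the Db + Ato10 libraries, so Db + Ato10 replicate 2, the lowest library for Cd59a, was also lowest for this sum. Of the 7, edgeR called 0 and DESeq2 0. At an unadjusted p under 0.05 edgeR had 0 higher and 1 lower (Kdr), against 11.2% and 5.71% of all genes. Kdr and Tek lay below every Db library in each Db + Ato10 library, against 11.3% of all genes. The part of these markers in the values of the members was not tested.

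Hepatocyte markers (7 of 8 tested, Fgg the most abundant over all 6 libraries) summed to 181, 222 and 82.9 CPM in the Db libraries and to 221, 1371 and 1013 CPM in the Db + Ato10 libraries. Within the list Fga, Fgb and Fgg, the fibrinogen chains, made up most of the sum in every library except Db replicate 1. All 3 were higher at an unadjusted p under 0.05 in edgeR (11.2% of all genes), without overlap (12%), and were called by DESeq2 (5.17%). Their log2 fold changes in edgeR were 3.00, 3.36 and 3.22. Each DESeq2 call was lost without Db replicate 1 or Db + Ato10 replicate 2. The log2 fold changes in edgeR were 2.66, 2.95 and 2.82 without the former and 2.62, 3.01 and 2.73 without the latter. The DESeq2 calls of Fga and Fgg were also lost without Db replicate 3 (adjusted p = 0.0705 and 0.0909). That of Fgb was also lost without Db + Ato10 replicate 1 (adjusted p = 0.0786), and that of Fgg without Db + Ato10 replicate 3 (adjusted p = 0.0730). Alb stood at 1.38 and 1.49 CPM in Db + Ato10 replicates 1 and 2 and at 17.6 CPM in replicate 3, against 19.9 to 31.1 CPM in the Db libraries. Ttr stood at 103 CPM in Db replicate 1, most of the sum there, and at 3.55 and 2.83 CPM in Db replicates 2 and 3, with 1.98, 132 and 1.58 CPM in the Db + Ato10 libraries. Ahsg, which liver expresses strongly, had at most 4 counts in any library. The sum of the kidney markers was lowest in Db + Ato10 replicates 1 and 2, the libraries in which C3 was highest and C8a lowest, although Kap, Aqp2 and Nphs1 were not among the lowest in replicate 1. Of the 9, edgeR called 0 and had 0 higher and 2 lower at an unadjusted p under 0.05, against 11.2% and 5.71% of all genes. The 2 were Slc12a1 and Slc12a3, named after their values were seen, and DESeq2 called both lower, against 1.29%. The DESeq2 call of Slc12a1 was kept whichever library was left out. That of Slc12a3 was kept only without Db + Ato10 replicate 3 (adjusted p from 0.0689 to 0.213 otherwise). Its log2 fold change in edgeR was -1.20, and -1.50 to -0.92 with 1 library left out. Slc12a1, Slc12a3 and Slc5a2 were the 3 that lay below every Db library in each Db + Ato10 library, against 11.3% of all genes. The part of these markers in the member values was not tested.

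**Figure D3:**
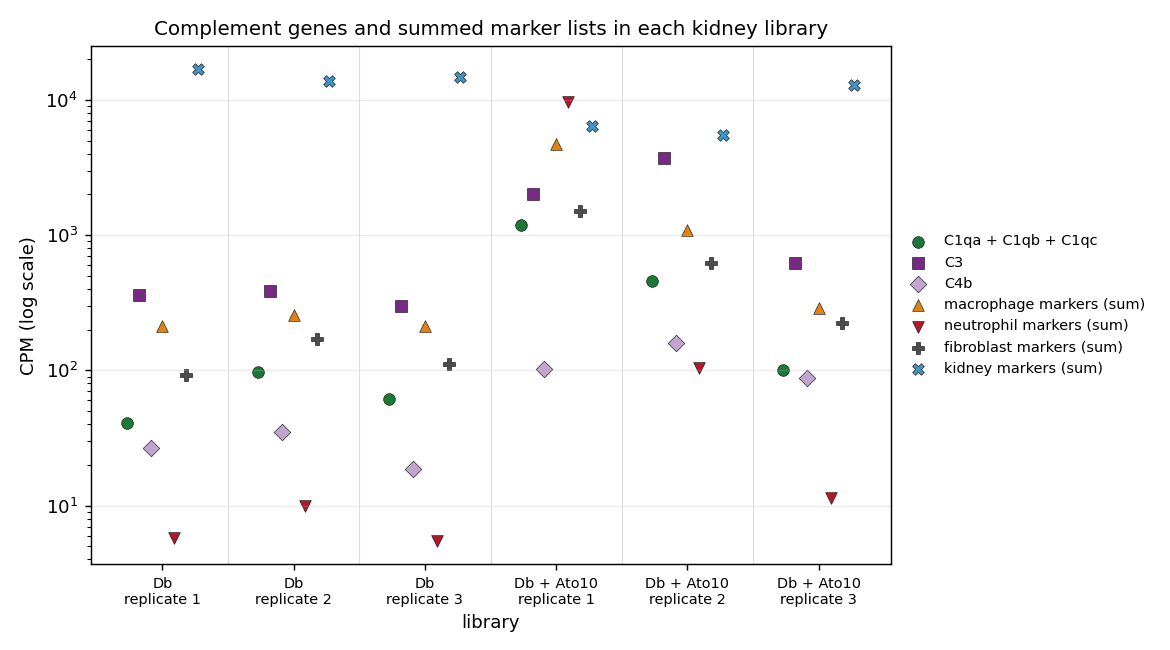
Level of C3, of C4b and of the sum of the C1q chains beside summed marker lists in each library, in CPM on a log scale; each point is 1 gene or list in 1 library. Macrophage markers stood at 4739, 1091 and 289.8 CPM in Db + Ato10 replicates 1 to 3, whereas C3 was highest in replicate 2 at 3752 CPM.

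A list of 23 further complement genes was also drawn up. Of these, 22 were in the table and 15 were tested, with 5 higher and 0 lower at an unadjusted p under 0.05 in edgeR, 0 past the adjusted criteria, and 4 called higher by DESeq2. The 5 were C1s2, Clu, Itgam, Itgax and Itgb2, named after their values were seen; over all tested genes edgeR had 11.2% higher and DESeq2 called 5.17% higher. Cr2, which encodes complement receptors 1 and 2 and was also singled out by its values, lay below every Db library in each Db + Ato10 library (1.05, 0.473 and 1.18 CPM against 1.43 to 1.99), with a log2 fold change of -0.89 (edgeR adjusted p = 0.331) and -0.57 without Db + Ato10 replicate 2. Clu encodes clusterin, an inhibitor of membrane attack that tubules make, and was the most abundant of the list. Clu stood at 788, 1179.9 and 633 CPM in the Db libraries and at 1579.9, 2274 and 1662 CPM in the Db + Ato10 libraries, with a log2 fold change of 1.08 (edgeR adjusted p = 0.239) and no overlap. Itgam, Itgax and Itgb2 encode the chains of the leukocyte complement receptors CR3 and CR4, and had log2 fold changes of 5.56, 2.41 and 4.30, with no overlap between the groups (12% of all tested genes were higher without overlap and 11.3% lower). Without Db + Ato10 replicate 1, the library with the highest neutrophil sum, these were 3.04, 2.42 and 1.99. The DESeq2 call of Clu was lost without Db replicate 1 or 3 or Db + Ato10 replicate 2 (adjusted p = 0.161, 0.114 and 0.129). Its log2 fold change in edgeR was then 1.03, 0.90 and 0.92. The DESeq2 call of Itgam was lost without Db replicate 3 (adjusted p = 0.0783), and that of Itgb2 without Db replicate 1 (adjusted p = 0.0565). Itgax was called by DESeq2 whichever library was left out.

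Of 12 inducers and transcription factors known to act on complement genes, 9 were tested. In edgeR 8 were higher at an unadjusted p under 0.05, against 11.2% of all genes, and 0 lower, against 5.71%. DESeq2 called 5 of them higher (Stat3, Nfkb2, Relb, Cebpb and Cebpd), against 5.17% of all genes. Only Stat3 was called whichever library was left out, and Nfkb2 was called only without Db + Ato10 replicate 3. The log2 fold change of Nfkb2 in edgeR was 1.56, and 0.88 to 1.90 with 1 library left out. Il1b had no adjusted p in DESeq2 on all 6 libraries, so it could not be called there. Cebpb had the highest mean TPM of the list over all 6 libraries, although Stat3 was higher in the Db group and Il1b in the Db + Ato10 group. Cebpb stood at 37.4, 31.4 and 10.7 CPM in the Db libraries and at 328, 53.1 and 51.2 CPM in the Db + Ato10 libraries, with a log2 fold change of 2.44 that was 0.99 without Db + Ato10 replicate 1. Il1b, which encodes interleukin 1 beta, stood at 0.715, 0.954 and 1.13 CPM in the Db libraries and at 439.8, 14.9 and 3.94 CPM in the Db + Ato10 libraries (log2 fold change 7.34, and 3.34 without Db + Ato10 replicate 1), and was singled out after its values were seen. Stat3, the mediator of interleukin 6 signalling, stood at 122, 136 and 99.0 CPM in the Db libraries and at 285, 230.3 and 203 CPM in the Db + Ato10 libraries, again without overlap. Ifng, which encodes interferon gamma, had at most 3 counts in any library. Their part in the values of the members was not tested.

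The transcript table listed 85 transcripts of the members, of which 42 were tested. With edgeR's quasi-likelihood test, 0 member transcripts and 0 of all 30175 tested transcripts (0%) met the same criteria, with 14 member transcripts higher and 0 lower at an unadjusted p under 0.05, among 2471 of all transcripts; no other tool was run on transcripts. C3 had 1 curated RefSeq transcript and 1 predicted model transcript past the filter. The model transcript held 57.9, 78.8 and 63.4% of the C3 TPM in Db replicates 1 to 3 and 83.5, 81.2 and 70.2% in Db + Ato10 replicates 1 to 3. Its log2 fold change was 3.05 ± 0.76 and that of the curated transcript 2.03 ± 0.54 (edgeR adjusted p = 0.452 and 0.503), so both lay in the same direction. For C4b the curated transcript held 96.2 to 98.8% of the TPM in every library, with a log2 fold change of 2.16 ± 0.33.

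Promoter windows from RefSeq (250 bases before the transcription start to 50 after it, build GRCm38.p6) were found for 27 of the 36 members. Each was searched on both strands for GAGGAA, a core of sites of the myeloid factor PU.1, and for GGGA and CC with any 4 bases between them, a form of the NF-kB site. These members had 30 windows. GAGGAA was in 8 of the 30, against 28.3% of all 32851 windows, and the NF-kB form in 7 of the 30, from 6 members (C1qb, C1qc, C1s1, C3, C5ar2 and Cd55), against 20.7%. The interferon element, GAAA repeated after any 2 bases, was found in 3 of the 30, against 3.44% of windows, and the STAT element, TTC and GAA with any 3 bases between them, in 5, against 8.30%. The 250 bases before the start are printed for C1qb, C1qc and C3, members that were higher without overlap in CPM and hold such matches; those of Cd59a, lower without overlap, hold GAGGAA and the interferon form and are not printed; capitals mark every match to the 4 motifs, on either strand. They lie on the minus strand at chr4:136886201-136886450 (C1qb), chr4:136892915-136893164 (C1qc) and chr17:57228137-57228386 (C3), and each is written 5′ to 3′ along its gene.
C1qb: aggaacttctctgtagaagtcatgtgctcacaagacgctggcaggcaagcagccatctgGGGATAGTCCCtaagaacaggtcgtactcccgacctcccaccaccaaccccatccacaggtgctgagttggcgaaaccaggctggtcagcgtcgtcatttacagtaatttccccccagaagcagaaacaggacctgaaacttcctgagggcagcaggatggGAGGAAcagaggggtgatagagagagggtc
C1qc: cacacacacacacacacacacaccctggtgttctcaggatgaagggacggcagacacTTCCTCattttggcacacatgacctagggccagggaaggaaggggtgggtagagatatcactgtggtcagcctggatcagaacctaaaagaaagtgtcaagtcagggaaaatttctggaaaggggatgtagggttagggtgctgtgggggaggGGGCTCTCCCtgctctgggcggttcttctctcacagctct
C3: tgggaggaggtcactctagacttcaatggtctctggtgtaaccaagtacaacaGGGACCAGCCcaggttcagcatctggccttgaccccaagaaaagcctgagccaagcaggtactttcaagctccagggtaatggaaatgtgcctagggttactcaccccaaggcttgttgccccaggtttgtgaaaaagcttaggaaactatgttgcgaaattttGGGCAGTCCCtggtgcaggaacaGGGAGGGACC

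C1qb held GAGGAA and, farther from its start, the NF-kB form on both strands in overlapping positions. C1qc held the reverse complement of GAGGAA and a match to the NF-kB form close to its start, and C3 held 3 matches to the NF-kB form, the last of them ending at the base before the start. These matches describe the letters of the windows and do not show that a factor binds there.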

How the data were processed

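Kidney RNA of 3 Db and 3 Db + Ato10 mice was measured, with 1 library per mouse, on the BGISEQ-500; the labels name oligo-dT selection or rRNA depletion without saying which. Gene and transcript tables with expected counts were deposited by the authors; 91.3% of the gene values equalled a whole number with no tolerance, and all were rounded. The authors also deposited FPKM and TPM (scaled to length and library); the deposited average columns were not used. HISAT, Bowtie2 2.2.5 and the build mm9 are named in the submitters' processing notes without a role, and strand use in counting is not stated there.

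The test covered genes that reached 10 counts in 3 or more libraries, with edgeR 4.0.16 (R 4.3.3), TMM scaling and the quasi-likelihood F test; differential expression meant an adjusted p under 0.05 (Benjamini-Hochberg, over all tested genes) together with a fold change over 1.5. The SE of a log2 fold change follows from its size and the square root of F. CPM are counts scaled to TMM library size. A prior count of 2 entered only the log2 CPM behind the principal component and the correlations between libraries. The log2 fold changes were fitted with the installed defaults. Totals ran from 11381678 to 14667909 counts, so 3 counts were the floor per library. With 3 against 3 libraries the smallest exact permutation p is 0.1.

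The members, the marker lists and the lists of further complement genes and inducers were chosen with earlier results of these data known. Named in full are tested members whose groups did not overlap, the member of highest mean TPM over all libraries in each role, and C4b with C4a. Alternatives tried were DESeq2 1.42.0, limma-voom (limma 3.58.1), bias-adjusted deviances, upper-quartile normalization, limma on log2(TPM + 1) and on log2(FPKM + 1) with a pseudocount of 1, other filters and thresholds, a block for the replicate number, and each library left out in turn. A RefSeq table of GRCm38.p6 gave names, gene order and promoter windows only. The scripts were tested on simulated data, and Python 3.11.15 with matplotlib 3.10.9 drew the figures.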

Additional observations from a re-analysis of the deposited data

How the results depend on the processing

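Of the 25 tested members, 18 kept the sign of their log2 fold change under every alternative run, and 7 (C1rl, C2, Cfb, C8g, Cd55, Cd46 and Cr1l) changed sign under at least 1. The counts past the criteria were 0 with edgeR and with each other alternative on all 6 libraries except DESeq2, which gave 884 genes and 9 members. With 1 library left out, edgeR gave 0 to 1106 genes and 0 to 11 members, all above 0 being without Db + Ato10 replicate 3, and DESeq2 gave 195 to 2614 genes and 3 to 16 members (lowest without Db replicate 1, highest without Db + Ato10 replicate 3). These DESeq2 fits with a library left out were chosen after seeing the data.

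The 11 members at an unadjusted p under 0.05 (2314 of 13679 genes) became 18 with no filter beyond 1 count (2782 of 17672 genes) and 7 with limma on log2(FPKM + 1) (1915 of 13679). With 1 library left out they ran from 6 to 16 in edgeR (1043 to 4038 genes) and from 11 to 17 in DESeq2 (1634 to 4173 genes). Members higher without overlap numbered 4 to 16 with 1 library left out. They were 16 without Db replicate 2, against 20.2% of all genes, and 14 without Db + Ato10 replicate 3, against 25.3%. The share higher was 14.0 to 15.5% with another library left out. Members lower without overlap numbered 1 to 3 with 1 library left out. They were 3 without Db + Ato10 replicate 3, against 25.1% of all genes, and 2 without Db replicate 2, against 18.9%. They were also 2 without Db + Ato10 replicate 1, against 14.9%, and 1 with any other library left out, against 15.6% or less. With no filter beyond 1 count, 5 members were higher and 2 lower without overlap. The share over all genes is not given for that setting, so these counts cannot be set against it. The members lower there included Masp2, which had at most 4 counts in any library.

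The members' median log2 fold change of 1.56 ran from 0.87 to 1.96 in edgeR and from 0.86 to 1.98 in DESeq2 with 1 library left out, lowest without Db + Ato10 replicate 1, and was 0.93 with limma on log2(FPKM + 1) and 0.97 with log2(TPM + 1). The terminal median of 0.081 was -0.24 with at least 10 counts in every library, where fewer genes were tested, and -0.013 with log2(TPM + 1); with 1 library left out it ran from -0.44 to 0.44 in edgeR and from -0.43 to 0.45 in DESeq2. The regulators' median of 0.34 was 0.17 with limma-voom, 0.17 with the replicate block and 0.14 with log2(TPM + 1), and ran from -0.025 to 0.50 in edgeR and from -0.028 to 0.51 in DESeq2 with 1 library left out.

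Among single members, limma on log2(TPM + 1) gave -0.038 for C2, 0.026 for Cd46 and -0.0083 for Cr1l, and limma on log2(FPKM + 1) gave 0.061 for Cd46. With 1 library left out, C1rl ran from -0.23 to 0.26 in edgeR and from -0.24 to 0.27 in DESeq2, C2 from -0.28 to 0.50 and from -0.27 to 0.50, and Cfb from -0.11 to 0.60 and from -0.11 to 0.59. C8g ran from -0.90 to 0.077 in edgeR and from -0.89 to 0.075 in DESeq2, and Cd55 from -0.43 to 1.01 and from -0.44 to 1.02. Cd46 ran from -0.21 to 0.039 in edgeR and from -0.21 to 0.042 in DESeq2, and Cr1l from -0.036 to 0.12 and from -0.039 to 0.12. For these changes beyond the number of genes tested or libraries used, the cause was not tested.

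With the replicate number as a block, 0 genes passed the criteria in edgeR, with 1856 genes and 11 members at an unadjusted p under 0.05. These 11 held Masp1, C6 and Cfi in place of Cfp, Serping1 and C3ar1, which were among the 11 without the block. DESeq2 without the block called 9 members. Libraries of the same number correlated at -0.15, 0.061 and 0.21, and not every library correlated best with its own number, so they share only a number. The filter of 10 counts in 3 libraries left 11 members untested; with no filter beyond 1 count all 36 were tested, and Masp2, Fcna, C5ar2 and Vsig4 were among the 18 above. A level of 3 counts corresponds to between 0.198 and 0.260 CPM.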
